A study of Mus musculus with 3 samples.

Results

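The genes described here are 10 regulators of the step from G1 into S phase: the kinase gene Cdk6, the D cyclin genes Ccnd1, Ccnd2 and Ccnd3, the INK4 inhibitor genes Cdkn2a, Cdkn2c and Cdkn2d, and the CIP/KIP inhibitor genes Cdkn1a, Cdkn1b and Cdkn1c. They were picked by symbol, and all 10 were found among the 33696 genes of the count matrices. The cells are mouse bone marrow, read by 10x Chromium 3' single-cell RNA sequencing in 3 libraries. One library came from homozygous Fabp4 knockout mice, 1 from heterozygous Fabp4 knockout mice and 1 from wild-type mice. Fabp4 encodes a fatty acid-binding protein best known from fat cells and macrophages. Each library pooled 2 mice and no file assigns a cell to a mouse, so differences between genotypes have no replicate check and carry no p-value. The kind of knockout allele, the strain, the age and any treatment are not given in the sources used here.

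D cyclins bind CDK4 or CDK6, and the complex phosphorylates the retinoblastoma protein, which releases E2F factors and lets a cell enter S phase. INK4 proteins bind CDK4 and CDK6 and block that pairing, while CIP/KIP proteins act on CDK2 complexes and can also help assemble cyclin D complexes. In bone marrow, CDK6 is the D-cyclin kinase best known from stem and progenitor cells, and p57, the product of Cdkn1c, is known for keeping stem cells quiescent.

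Deposited barcodes numbered 8115 in the homozygous, 10718 in the heterozygous and 9432 in the wild-type library, with 54160590, 78426908 and 77173735 UMIs. Barcodes under 500 UMIs, under 200 genes or with 10% or more mitochondrial UMIs were dropped, which left 4318 homozygous, 7957 heterozygous and 5604 wild-type cells. Fabp4 itself had 7 UMIs in the homozygous, 43 in the heterozygous and 73 in the wild-type library over all barcodes, or 0.129, 0.548 and 0.946 counts per 1e+06 UMIs (CPM). Between 21 and 26 barcodes were shared by each pair of libraries. The libraries also differed in the sex-linked RNA of their cells: cells with Y-linked but no Xist UMIs numbered 142 in the homozygous, 4507 in the heterozygous and 74 in the wild-type library, and cells with Xist but no Y-linked UMIs numbered 3636, 1148 and 5151. The heterozygous library therefore held cells of both kinds, and each of the other libraries mostly Xist-positive cells.

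Each kept cell was given the class whose marker genes it expressed most strongly, and 6 classes had at least 50 cells in every library. They are called progenitor-like (62 homozygous, 181 heterozygous and 516 wild-type cells), granulocyte-monocyte progenitor-like, here GMP-like (967, 923 and 1192 cells), immature neutrophil-like (300, 2422 and 615), mature neutrophil-like (177, 1733 and 159), monocyte-like (1206, 837 and 1056) and dendritic-like (75, 405 and 94). In each class, every marker of its list was more than 2-fold higher inside the class than outside. The same markers set the classes, so this is no independent check of the class names. Cells that met no class numbered 1493 in the homozygous, 1413 in the heterozygous and 1917 in the wild-type library. A cell counted as dividing with at least 1 UMI of Top2a or Mki67, which held for 60.2% of homozygous, 41.8% of heterozygous and 49.4% of wild-type cells. Dividing cells were deeper, with medians of 10834.5, 10801 and 13031 UMIs, against 7296.5, 6343.5 and 8149.5 UMIs in non-dividing cells. Levels are given in CPM after summing the cells of a class within a library. UMIs from the 3' end do not depend on transcript length in the way whole-transcript reads do, yet capture differs between transcripts, so levels are compared within a gene and not between genes.

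Cdk6 was highest in progenitor-like cells, at 2686 CPM in the homozygous, 2803 in the heterozygous and 2632 in the wild-type library. GMP-like cells followed at 1574, 1538 and 1552 CPM and dendritic-like cells at 1122, 1328 and 1410 CPM. The 3 libraries of each of these classes lay apart from the next class. In immature neutrophil-like, monocyte-like and mature neutrophil-like cells the libraries spanned 670 to 1087 CPM and overlapped between classes. Class levels were compared with edgeR's quasi-likelihood test on UMIs summed per library and class, with library as a block and Benjamini-Hochberg adjustment over all 13468 genes tested. Against GMP-like cells, Cdk6 was higher in progenitor-like cells by 0.72 on the log2 scale (SE 0.11, adjusted p = 3.08e-05), lower in immature neutrophil-like cells (log2 -0.46, adjusted p = 0.00173) and lower in monocyte-like cells (log2 -0.72, adjusted p = 1.02e-05).

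The D cyclins were spread over different classes. Ccnd2 was highest in dendritic-like cells (15.2, 35.5 and 51.8 CPM in the homozygous, heterozygous and wild-type libraries) and progenitor-like cells (36.4, 36.8 and 26.0 CPM), whose libraries overlapped, and both lay above GMP-like cells (14.9, 14.6 and 13 CPM). It was higher in progenitor-like than in GMP-like cells (log2 1.07, SE 0.24, adjusted p = 0.00139) and lower in immature neutrophil-like (log2 -1.51) and monocyte-like cells (log2 -2.19) than in GMP-like cells, by the same edgeR test. Ccnd1 stood out in dendritic-like cells, at 96.8 CPM in the homozygous, 54.3 in the heterozygous and 38.5 in the wild-type library. In every other class it lay between 0 and 8.15 CPM in each library, with overlapping libraries. Cells with a Ccnd1 UMI after thinning to 1000 UMIs made up 4.05%, 3.75% and 6.52% of dendritic-like cells in that order, against 0.416%, 0.358% and 0.380% of monocyte-like cells.

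Ccnd3, a D cyclin known from maturing blood cells, was higher at each step from GMP-like to mature neutrophil-like cells. Its level was 197, 180 and 154 CPM in GMP-like cells of the homozygous, heterozygous and wild-type libraries, and 324, 300 and 287 CPM in immature neutrophil-like cells. Mature neutrophil-like cells had 607, 508 and 476 CPM. The differences were log2 1.07 (SE 0.13, adjusted p = 1.56e-06) and then log2 0.84 (SE 0.14, adjusted p = 3.77e-05), by edgeR. It was also higher in monocyte-like (log2 1.2) and progenitor-like cells (log2 0.51, adjusted p = 0.00568) than in GMP-like cells. The progenitor call was lost without the heterozygous library (adjusted p = 0.104).

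**Figure D1:**
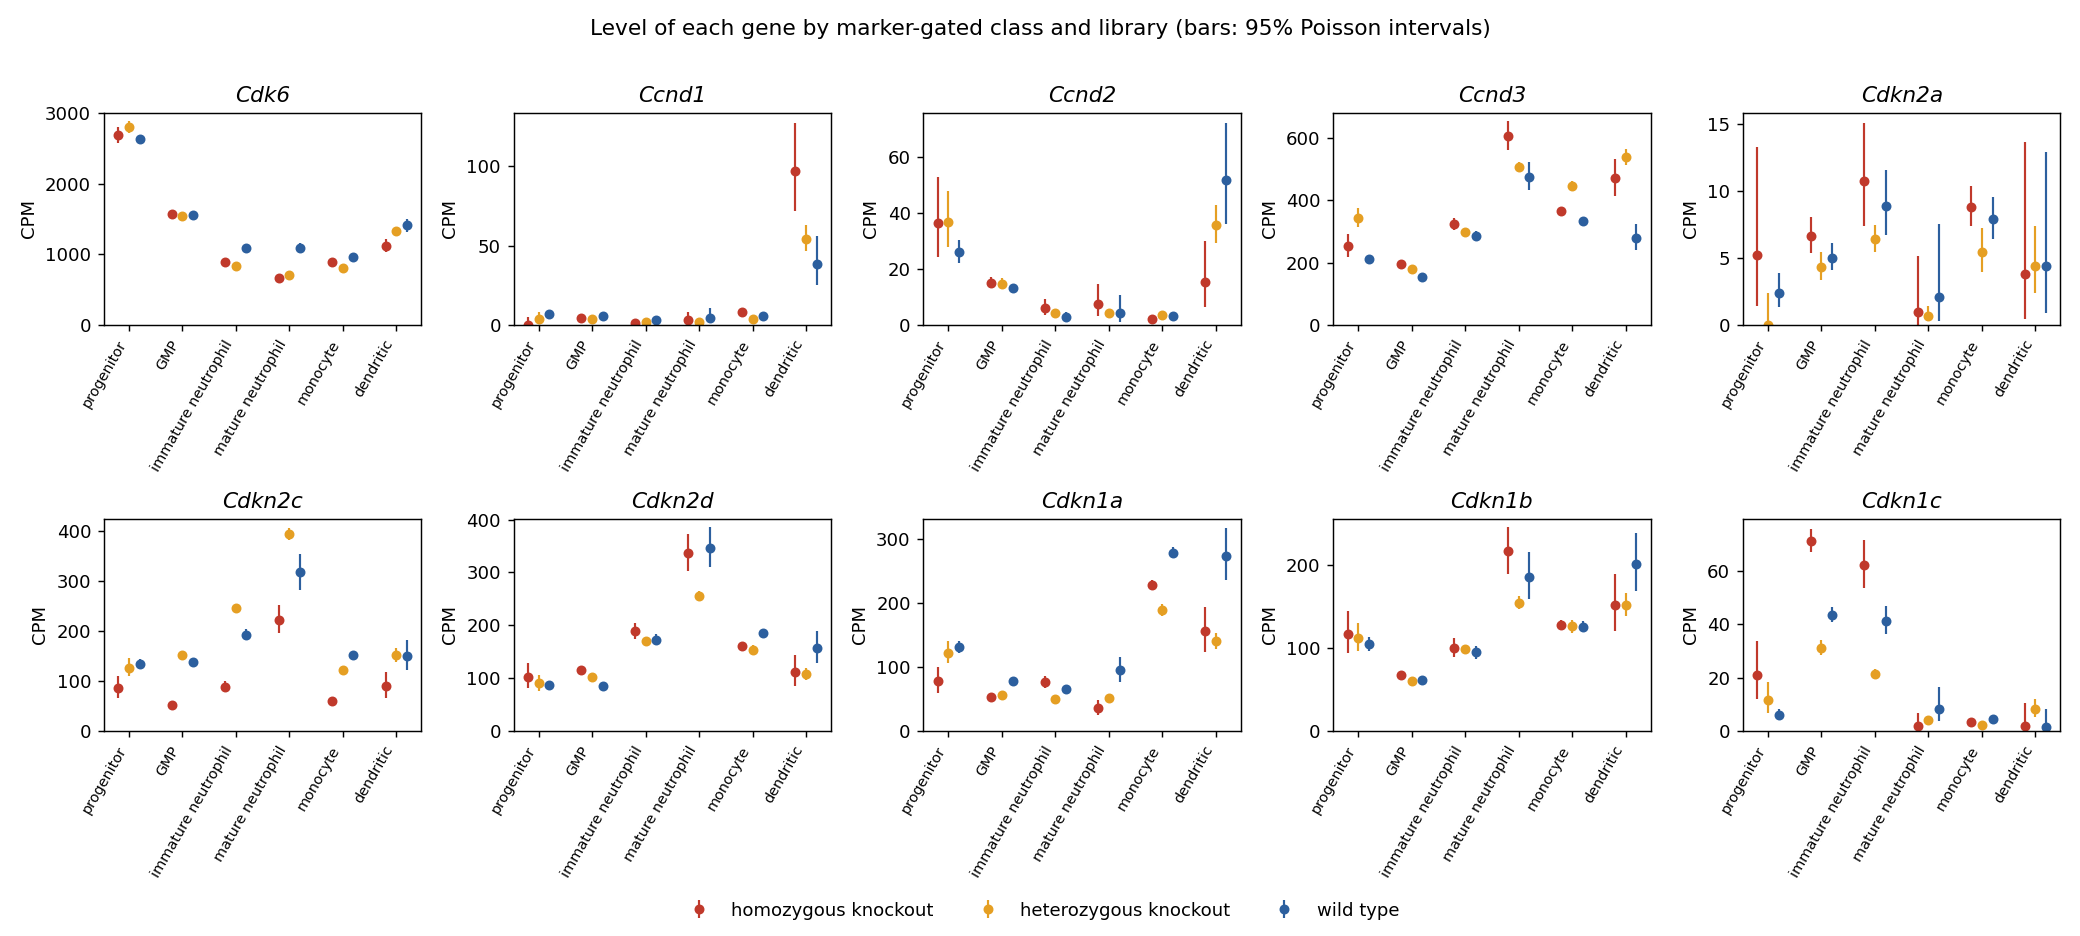
Level of each of the 10 genes (CPM, linear axes from 0) in the 6 marker-gated classes, for the homozygous knockout, heterozygous knockout and wild-type library from left to right in each class. Bars are 95% exact Poisson intervals, which cover counting error only. Cdk6 is highest in progenitor-like cells, Ccnd1 in dendritic-like cells and Cdkn2d in mature neutrophil-like cells, and Cdkn2c is lowest in the homozygous library in each class.

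Among the INK4 genes, Cdkn2c (p18Ink4c) and Cdkn2d (p19Ink4d) were highest in mature neutrophil-like cells. Cdkn2d had 337, 255 and 346 CPM there in the homozygous, heterozygous and wild-type libraries, apart from the 189, 170 and 172 CPM of immature neutrophil-like cells. Those in turn exceeded the 116, 102 and 85.3 CPM of GMP-like cells. Cdkn2d was higher at both steps (log2 1.10 and 0.84, SE 0.12 and 0.13) and Cdkn2c as well (log2 0.94 at each step, SE 0.17 at each). The Cdkn2c calls were lost when the library was left out of the fit (adjusted p = 0.104 and 0.116), and its libraries overlapped between classes.

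Cdkn2a was scarce, at most 10.8 CPM in any class and library. It was higher in immature neutrophil-like than in GMP-like cells (log2 0.99, SE 0.21, adjusted p = 0.000677) and lower in mature than in immature neutrophil-like cells (log2 -3.00, SE 0.40, adjusted p = 3.97e-06), by edgeR. In mature neutrophil-like cells it came to 1, 7 and 2 UMIs in the homozygous, heterozygous and wild-type libraries. The locus encodes both p16Ink4a, a CDK4 and CDK6 inhibitor, and p19Arf, which acts through Mdm2 and p53, and the transcripts share their 3' exons. UMIs counted at the 3' end therefore cannot tell them apart.

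Among the CIP/KIP genes, Cdkn1a (p21), the p53 target, was highest in monocyte-like cells at 227, 189 and 278 CPM in the homozygous, heterozygous and wild-type libraries, overlapping with dendritic-like cells at 156, 140 and 274 CPM. GMP-like cells had 52.7, 55.5 and 78.5 CPM, lower in every library, and the edgeR difference between monocyte-like and GMP-like cells was log2 2.0 (SE 0.16, adjusted p = 2.13e-09). Cdkn1b (p27) was highest in mature neutrophil-like (216, 154 and 186 CPM) and dendritic-like cells (152, 152 and 201 CPM) and lowest in GMP-like cells (67.1, 60.5 and 60.9 CPM). Apart from the first pair, each class was separated from the next in all libraries, and Cdkn1b was called higher in all 4 contrasts, by log2 0.74 to 1.10.

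Cdkn1c (p57) was highest in GMP-like cells, at 71.4 CPM in the homozygous, 31.2 in the heterozygous and 43.6 in the wild-type library. Immature neutrophil-like cells had 62.2, 21.5 and 41.3 CPM and overlapped with them, while monocyte-like cells had 3.46, 2.29 and 4.38 CPM. Progenitor-like cells, at 20.8, 11.6 and 5.98 CPM, lay below GMP-like cells in every library. Cdkn1c was lower in monocyte-like (log2 -3.73, SE 0.29) and progenitor-like (log2 -2.37, SE 0.34) than in GMP-like cells, and lower in mature than in immature neutrophil-like cells (log2 -2.79, SE 0.37), each with an edgeR adjusted p of at most 1.96e-05. After thinning to 1000 UMIs, 6.50%, 2.61% and 3.78% of GMP-like cells had a Cdkn1c UMI, against 0.25%, 0.358% and 0.285% of monocyte-like cells.

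Counted over the 10 genes, 5 were higher and 2 lower in immature neutrophil-like than in GMP-like cells, where 22.6% of all tested genes were higher and 22.0% lower. From immature to mature neutrophil-like cells 4 were higher and 2 lower, against 21.4% and 25.2% of genes. Monocyte-like against GMP-like cells gave 5 higher and 3 lower, against 28.5% and 27.9%, and progenitor-like against GMP-like cells 5 higher and 2 lower, against 19.0% and 19.2%. Their median log2 differences were 0.63, 0.12, 0.51 and 0.34, with medians over all genes between -0.07 and -0.01.

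Cells with Top2a or Mki67 RNA and cells without it were compared within each class, again with edgeR and library as a block, so that the 3 libraries served as repeats. In immature neutrophil-like cells, 3 inhibitor genes were higher in dividing cells: Cdkn2a (log2 2.54, SE 0.28, adjusted p = 2.61e-06), Cdkn1a (log2 1.77, SE 0.14, adjusted p = 5.64e-08) and Cdkn1c (log2 1.54, SE 0.19, adjusted p = 7.25e-06). Cdkn2c, Cdkn1b, Cdkn2d and Ccnd3 were lower. These were 3 higher and 4 lower of 9 genes tested, in a comparison where 24.6% of all 10626 genes tested were higher and 23.3% lower.

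The values of each library show how far the states lay apart in immature neutrophil-like cells. Cdkn1a had 107, 69.5 and 95.2 CPM in dividing cells of the homozygous, heterozygous and wild-type libraries, against 19.4, 22.7 and 20.9 CPM in non-dividing cells. Cdkn1c had 90.0, 29.6 and 53.4 CPM in dividing cells, against 11.1, 9.88 and 24.0 CPM. Neither gene's dividing values overlapped with its non-dividing values. Cdkn2a had 16.1, 9.76 and 13.5 CPM in dividing cells, from 32, 142 and 49 UMIs. In non-dividing cells it had 1, 17 and 6 UMIs, or 0.925, 1.66 and 2.36 CPM. All 3 genes were higher in dividing cells of every library.

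In the other direction, Cdkn2c had 59.9, 211 and 163 CPM in dividing immature neutrophil-like cells of the homozygous, heterozygous and wild-type libraries, against 142, 295 and 234 CPM in non-dividing cells. Its groups overlapped, but every library was lower in dividing cells, and the fit gave log2 -0.74 (SE 0.11, adjusted p = 3.97e-05), a call lost with no library block (adjusted p = 0.189). Cdkn1b had 86.0, 85.7 and 79.8 CPM against 127, 118 and 116 CPM (log2 -0.62, SE 0.08, adjusted p = 1.90e-05). Ccnd3 had 272, 242 and 241 CPM against 420, 381 and 352 CPM (log2 -0.73, SE 0.07, adjusted p = 1.03e-06). For Cdkn1b and Ccnd3 the groups did not overlap. The Cdkn2d call (log2 -0.24, adjusted p = 0.0210) was lost in 7 of 13 alternatives, among them leaving out the heterozygous (adjusted p = 0.266) or the wild-type library (adjusted p = 0.149).

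Markers of neighbouring classes moved with these differences. Of the 6 GMP markers, 5 were higher and 0 lower in dividing immature neutrophil-like cells, with summed levels of 1640, 1509 and 1792 CPM in the homozygous, heterozygous and wild-type libraries, against 738, 674 and 1120 CPM in non-dividing cells. All 9 mature neutrophil markers were lower, with 660, 1763 and 655 CPM against 2065, 3914 and 1378 CPM. No marker of either list was at 0. Their part in the differences of the cell-cycle genes was not tested. Between cells of 5000 to 20000 UMIs, a range chosen after the data were seen, the same 7 genes passed in this class, with Cdkn2a at log2 2.53, Cdkn1a at 1.83 and Cdkn1c at 1.55.

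Of 10 genes tested in GMP-like cells, 3 were higher and 4 lower in dividing cells, against 9.23% and 8.36% of all 13198 genes. Cdkn2a (log2 1.37, SE 0.33, adjusted p = 0.00329), Cdkn2d (log2 0.53, SE 0.07, adjusted p = 9.96e-07) and Cdkn1a (log2 0.27, SE 0.08, adjusted p = 0.0193) were higher. Ccnd2 (log2 -0.82, SE 0.14), Ccnd3 (log2 -0.31, SE 0.05), Cdkn1b (log2 -0.24, SE 0.08) and Cdk6 (log2 -0.19, SE 0.04) were lower, with adjusted p-values of 7.30e-05, 6.75e-05, 0.0366 and 0.00185. Cdkn2d had 124, 109 and 90.7 CPM in dividing cells of the homozygous, heterozygous and wild-type libraries, against 74.0, 77.0 and 67.0 CPM, without overlap. Ccnd2 had 12.8, 12.2 and 11.9 CPM against 26.2, 23.8 and 16.6 CPM, also without overlap. Cdkn1c was alike in both states at this precision, with 71.8, 32.4 and 43.4 CPM against 69.4, 26.6 and 44.1 CPM (log2 0.06, SE 0.09).

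Only Ccnd2, Ccnd3 and Cdkn2d kept their call in GMP-like cells without the heterozygous library, where Cdk6, Cdkn2a, Cdkn1a and Cdkn1b had adjusted p-values of 0.221, 0.0507, 0.0918 and 0.461. Cdkn1a also lost its call without the homozygous library (adjusted p = 0.0956) and Cdkn1b without the wild-type library (adjusted p = 0.0949). Of 13 alternatives in this class, Cdkn1b lost its call in 9, Cdkn1a in 5, and Cdk6 and Cdkn2a in 4 each. In cells of 5000 to 20000 UMIs, Cdk6 fell short (log2 -0.06, adjusted p = 0.375). In this class, 3 of the 6 GMP markers were higher and 1 lower in dividing cells, and 4 of 9 immature neutrophil markers were higher and 0 lower. Lower were 4 of 8 monocyte, 3 of 9 mature neutrophil and 3 of 7 progenitor markers tested, with 0 higher in each list. The part of these markers was not tested.

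In monocyte-like cells 1 of the 10 genes was higher and 2 lower in dividing cells, against 14.3% and 16.8% of all 12137 genes. Cdkn2a had 12.4, 6.47 and 10.2 CPM in dividing cells of the homozygous, heterozygous and wild-type libraries, against 1.87, 4.52 and 5.54 CPM, without overlap (log2 1.25, SE 0.29, adjusted p = 0.00237). Its call was lost without the homozygous library (log2 0.68, adjusted p = 0.0862) and in cells of 5000 to 20000 UMIs (log2 0.91, adjusted p = 0.0687). Ccnd3 was lower, at 324, 365 and 304 CPM against 446, 517 and 361 CPM (log2 -0.49, SE 0.05, adjusted p = 1.31e-06), and although the groups overlapped every library was lower in dividing cells. Cdkn1b was lower too, with log2 -0.38 (SE 0.07, adjusted p = 0.000175). All 6 GMP markers were higher and 7 of 8 monocyte markers lower in the dividing cells of this class, and their part was not tested.

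**Figure D2:**
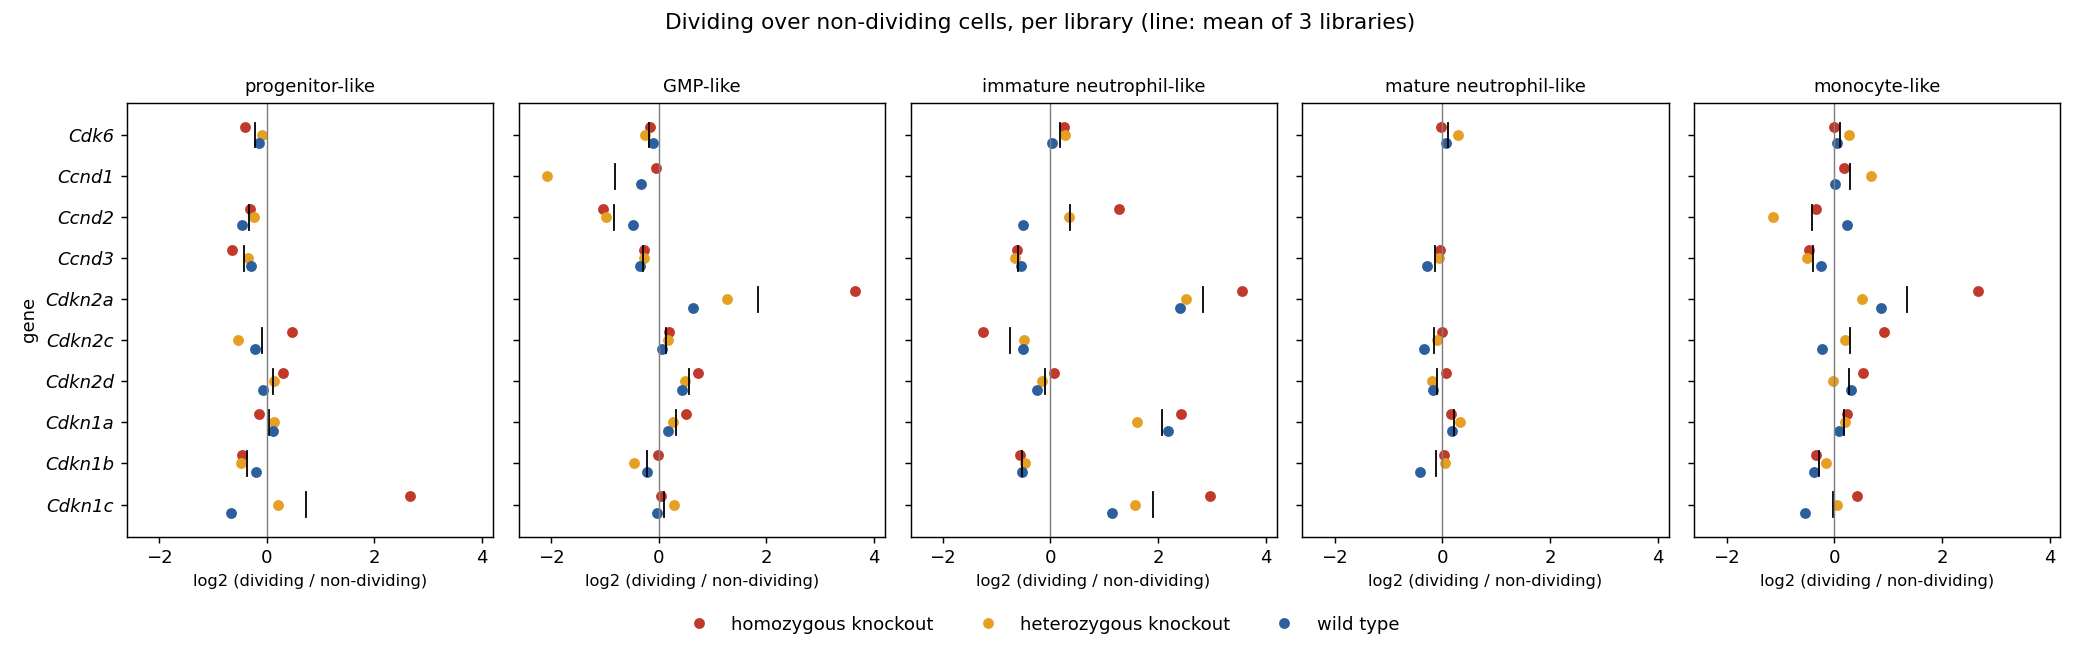
Difference between dividing and non-dividing cells (log2 ratio of CPM, 0.5 UMI added, horizontal axis) for each gene in 5 classes, with 1 point per library and a line at the mean of the 3 libraries. Genes with under 10 UMIs in any library of a class are not drawn. Cdkn2a, Cdkn1a and Cdkn1c lie far to the right in immature neutrophil-like cells, and Ccnd3 lies left of 0 in every library and class shown.

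No gene of the 10 passed in progenitor-like cells, where 7 were tested and 4.08% of all 8290 genes were higher and 1.38% lower. At an unadjusted p under 0.05 there were 3, and the nearest was Ccnd3 (log2 -0.41, SE 0.12, adjusted p = 0.0562). DESeq2 gave 0 calls, and edgeR with DESeq2's size factors or without a filter on low counts gave 1 each. In mature neutrophil-like cells none of 6 passed, 0 had an unadjusted p under 0.05, DESeq2 also gave 0, and 0.989% of all 6671 genes were higher and 0.06% lower. Of the lists described below, 1 of 8 S-phase genes and 0 of 18 G1 to S partners tested were higher in dividing cells of this class. Whether mature neutrophil-like cells with Top2a or Mki67 RNA were in cycle was not tested. The smallest dividing groups held 30 homozygous progenitor-like cells and 44 wild-type mature neutrophil-like cells.

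Over all kept cells, 2 genes were higher (Cdkn2a, log2 1.43, SE 0.20; Cdkn1c, log2 0.98, SE 0.10) and 5 lower in dividing cells, against 23.3% and 24.6% of all 16302 genes. The lower ones were Ccnd3 (log2 -0.71), Cdkn1b (log2 -0.59), Ccnd2 (log2 -0.37), Ccnd1 (log2 -0.35) and Cdkn2c (log2 -0.28). This sum mixes classes: all 6 GMP markers were higher and all 9 mature neutrophil markers lower in dividing cells overall. The Ccnd1 call was lost without any 1 of the libraries (adjusted p = 0.0701 without the homozygous, 0.0550 without the heterozygous and 0.0626 without the wild-type library). Ccnd2 was lost without the homozygous library (adjusted p = 0.0858) and Cdkn2c without the heterozygous library (log2 -0.16, adjusted p = 0.0680).

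Other genes of the pathway were followed in lists that hold none of the 10. Of 30 partners in the G1 to S step, 23 were higher and 2 lower in dividing cells overall (median log2 0.89, against -0.02 over all genes), led by Ccna2, the S and G2 cyclin (log2 4.38), E2f7, an E2F repressor (log2 3.92), and Ccne1, the CDK2 partner cyclin E1 (log2 2.94). Over all cells, 23.3% of all genes were higher and 24.6% lower. In immature neutrophil-like cells 23 of 28 tested were higher and 1 lower (median 1.26), against 24.6% and 23.3% of all genes. In GMP-like cells 19 of 30 were higher and 2 lower (median 0.40), against 9.23% and 8.36%. Of 20 S-phase genes, all were higher in dividing cells overall (median 1.54), led by the ribonucleotide reductase gene Rrm2 (log2 3.50). These lists overlap in function with the genes that define a dividing cell.

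A list of p53 pathway genes bears on Cdkn1a. In immature neutrophil-like cells 5 of 17 genes tested were higher and 9 lower in dividing cells (median log2 -0.38, against 0.01 over all genes), where 24.6% of all genes were higher and 23.3% lower. The largest were Gtse1, a G2 and S-phase gene that restrains p53 (log2 3.08), Trp53inp1, a p53 target (log2 -1.01), and Sesn2, a stress-response gene (log2 -0.90). In GMP-like cells 2 of 17 were higher and 5 lower, against 9.23% and 8.36% of all genes. Of 24 upstream regulators, 5 of 22 tested were higher and 7 lower in dividing immature neutrophil-like cells, against 24.6% and 23.3% of all genes. Ezh2, the Polycomb methyltransferase known for silencing the Cdkn2a locus, was higher (log2 1.44), and so was Myc (log2 0.89), while Smad3, which carries TGF-beta signals, was lower (log2 -0.90).

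Cdkn2a had the largest difference with division among the INK4 genes in immature neutrophil-like and GMP-like cells, and E2F factors are known to act on its locus, so the sequence before its starts is shown. Windows of 250 bases upstream of RefSeq starts (GRCm38.p6) were available for 7 of the 10 genes, in 11 windows. They were searched for TTTCCCGC, TTTGGCGC, TTTCGCGC and TTTGCCGC, forms of the E2F motif, on both strands. Of all 32851 windows, 611 (1.86%) held one, and among the 11 windows only the farther Cdkn2a start did. In the known layout of the locus that start belongs to the p19Arf transcript and the nearer one to p16Ink4a. The windows are at chr4:89294620-89294869 and chr4:89282193-89282442, minus strand, and capitals mark the motif.
Cdkn2a, farther start: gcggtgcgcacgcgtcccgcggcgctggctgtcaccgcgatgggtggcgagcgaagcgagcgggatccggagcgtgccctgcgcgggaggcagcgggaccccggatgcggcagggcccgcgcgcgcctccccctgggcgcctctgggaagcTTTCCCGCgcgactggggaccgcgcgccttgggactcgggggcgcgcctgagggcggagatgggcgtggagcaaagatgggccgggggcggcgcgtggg
Cdkn2a, nearer start: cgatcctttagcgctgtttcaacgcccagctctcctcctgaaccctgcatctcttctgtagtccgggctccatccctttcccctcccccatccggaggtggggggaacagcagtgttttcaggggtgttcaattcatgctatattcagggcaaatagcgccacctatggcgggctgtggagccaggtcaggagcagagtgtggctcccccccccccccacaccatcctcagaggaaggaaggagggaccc
The match is a description of the letters, not evidence of binding.

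Between genotypes, Cdkn2c was lower in the homozygous than in the wild-type library. Over all kept cells it had 64.0 CPM in the homozygous, 214 in the heterozygous and 150 in the wild-type library, so the homozygous library stood at log2 -1.23 of wild type (95% counting interval -1.29 to -1.17). In GMP-like cells the levels were 51.6, 152 and 139 CPM (homozygous over wild type log2 -1.43, interval -1.54 to -1.31). In monocyte-like cells they were 60.6, 122 and 152 CPM (log2 -1.32, interval -1.44 to -1.21). The homozygous library was the lowest of the 3 in each of the 6 classes.

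The same held where fewer cells were available. Immature neutrophil-like cells had 88.9, 246 and 192 CPM of Cdkn2c in the homozygous, heterozygous and wild-type libraries, progenitor-like cells 85.8, 127 and 135 CPM and dendritic-like cells 89.2, 152 and 151 CPM. The difference was smallest in mature neutrophil-like cells, at 223, 395 and 318 CPM (log2 -0.51, interval -0.76 to -0.26). After thinning to 1000 UMIs, 5.92%, 18.8% and 14.3% of all kept cells had a Cdkn2c UMI, and without thinning 33.5%, 68.2% and 67.8%; each class expressed the gene, so no cell type served as a blank. Over the cell filters, doublet removal, stricter gates and scalings tried, the log2 ratio of homozygous to wild-type cells stayed between -1.31 and -1.21 over all cells and between -1.53 and -1.37 in GMP-like cells.

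The heterozygous library stood above wild type in some classes and between the other libraries in others. Its Cdkn2c level over wild type was log2 0.51 (interval 0.48 to 0.55) over all cells, 0.14 in GMP-like, 0.35 in immature neutrophil-like and 0.31 in mature neutrophil-like cells. It was 0.01 in dendritic-like cells. In progenitor-like (log2 -0.09) and monocyte-like cells (log2 -0.31) it lay between the homozygous and the wild-type library. The ratio over all cells (log2 0.51) was thus higher than that of any class. The heterozygous library held 2422 immature and 1733 mature neutrophil-like cells, against 615 and 159 in wild type. In both libraries these were the classes with the most Cdkn2c. The part of this mix in the ratio over all cells was not tested. Both knockout libraries are set against the same wild-type library.

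Cdkn2c lies on chromosome 4 beside Faf1, which encodes a ubiquitin-binding adaptor of Fas signalling, and the genes are transcribed away from each other. The neighbours of Cdkn2c were examined after its values were seen. Faf1, the next expressed gene on one side, had 209 CPM in the homozygous, 402 in the heterozygous and 526 in the wild-type library over all kept cells. The ratio of homozygous to wild-type cells was log2 -1.33 (interval -1.37 to -1.30) over all cells, -1.34 in GMP-like and -1.09 in monocyte-like cells. Faf1 was thus lower in the homozygous library to a degree like that of Cdkn2c. Over all cells it was lower in the heterozygous library as well (log2 -0.39), unlike Cdkn2c. In GMP-like cells, heterozygous over wild type was log2 -0.35 for Faf1 and 0.14 for Cdkn2c. In monocyte-like cells both genes were lower in the heterozygous library, at log2 -0.38 for Faf1 and -0.31 for Cdkn2c.

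Rnf11, the next expressed gene on the other side, had 52.8, 106 and 71.0 CPM, or log2 -0.43 (interval -0.50 to -0.36) for homozygous over wild-type cells. The other 10 expressed neighbours, 5 on either side, lay between log2 -0.34 (Efcab14) and 0.47 (Stil). Expressed means at least 500 UMIs over the libraries, for protein-coding genes. Upstream windows of the facing starts are shown because both RNAs were low together. They are at chr4:109666757-109667006 for Cdkn2c, minus strand, and chr4:109676377-109676626 for Faf1, plus strand (GRCm38.p6), with the E2F motif in capitals where present.
Cdkn2c: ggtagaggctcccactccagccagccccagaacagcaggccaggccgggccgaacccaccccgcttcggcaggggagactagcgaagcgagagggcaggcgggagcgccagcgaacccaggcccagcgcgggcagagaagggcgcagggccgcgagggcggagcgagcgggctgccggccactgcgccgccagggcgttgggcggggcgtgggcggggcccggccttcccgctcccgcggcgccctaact
Faf1: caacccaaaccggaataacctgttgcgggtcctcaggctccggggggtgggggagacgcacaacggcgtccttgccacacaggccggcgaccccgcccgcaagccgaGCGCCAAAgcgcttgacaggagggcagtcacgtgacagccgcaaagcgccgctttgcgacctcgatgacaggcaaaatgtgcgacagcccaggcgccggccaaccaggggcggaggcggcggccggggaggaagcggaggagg
The Cdkn2c window held none of the 4 motif forms and the Faf1 window held 1, on the opposite strand. Whether this stretch of chromosome 4 differs in strain between the libraries was not tested, and with 1 library per genotype it cannot be told apart from the knockout.

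**Figure D3:**
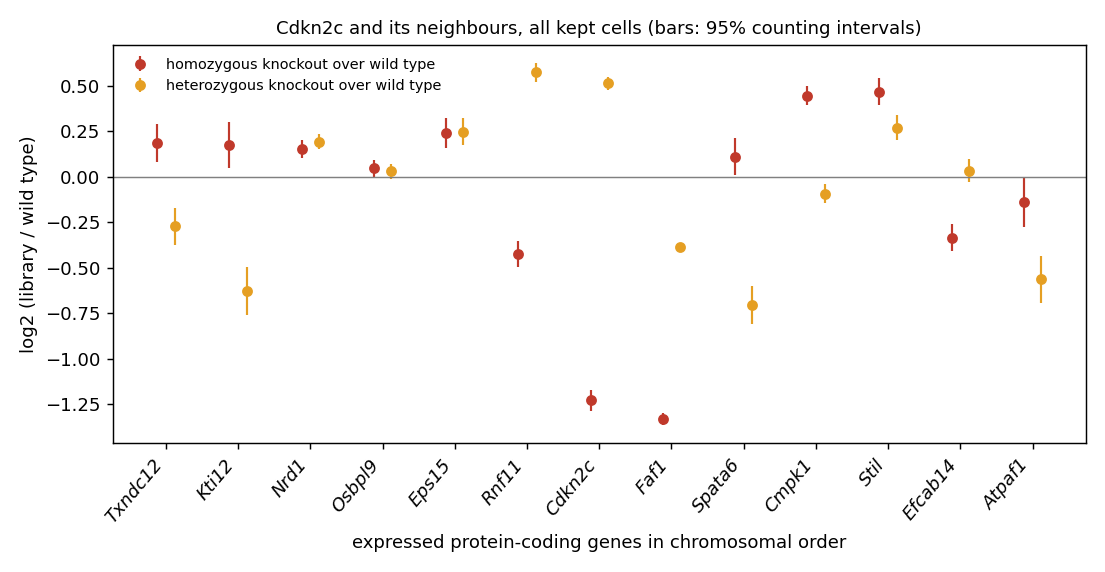
Log2 ratio of the homozygous and heterozygous knockout libraries to the wild-type library for Cdkn2c and the 6 nearest expressed protein-coding genes on either side, in chromosomal order and not to distance, over all kept cells. Bars are 95% counting intervals. In the homozygous library Cdkn2c (-1.23) and Faf1 (-1.33) lie below the other 11 genes, which span -0.43 to 0.47.

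Within the homozygous library, the few cells with Y-linked but no Xist RNA had more Cdkn2c than those with Xist but no Y-linked RNA. The levels were 92.0 CPM (interval 76.3 to 110) in 142 cells and 60.1 CPM (57.7 to 62.5) in 3636 cells, both below the 149 CPM of the 5151 wild-type Xist cells. In monocyte-like cells they were 110 CPM (76.8 to 152) in 32 cells and 58.4 CPM in 1071 cells. In mature neutrophil-like cells the order was turned, with 165 CPM (66.2 to 339) in 10 cells and 240 CPM (201 to 284) in 80 cells. Faf1 had 299 CPM (270 to 330) in the homozygous Y-only cells and 204 CPM in the Xist-only cells. In wild type the order was turned, with 345 CPM (301 to 394) in 74 Y-only and 532 CPM in 5151 Xist-only cells. The Faf1 intervals of the homozygous and wild-type Y-only cells thus overlapped. By class in the homozygous library, Faf1 had 244 CPM in 32 Y-only and 179 CPM in 1071 Xist-only monocyte-like cells. In GMP-like cells of that library it had 275 CPM in 14 and 184 CPM in 895 cells. In its immature neutrophil-like cells the order was turned, with 199 CPM (116 to 318) in 12 cells and 216 CPM in 240 cells. The sets also differed in their mix of classes, as these cell numbers show, and the part of that mix was not tested. The source of the Y-linked RNA in the homozygous library was not tested.

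In GMP-like and immature neutrophil-like cells, Cdkn1c lay on opposite sides of wild type in the knockout libraries. In GMP-like cells, with levels given above, homozygous over wild type was log2 0.71 (interval 0.58 to 0.84) and heterozygous over wild type -0.48 (-0.64 to -0.32). In immature neutrophil-like cells the ratios were 0.59 (0.31 to 0.87) and -0.94 (-1.16 to -0.72). In progenitor-like cells both were above 0, at 1.80 (0.86 to 2.68) and 0.96 (0.06 to 1.80), from 16, 18 and 38 UMIs in the homozygous, heterozygous and wild-type libraries. These UMIs came from only 3 of 62, 9 of 181 and 28 of 516 cells in that order. The shares of cells were alike, at 4.84%, 4.97% and 5.43%, and the intervals do not cover the spread between cells. In monocyte-like cells both ratios were below 0, at -0.34 and -0.93, from 54, 19 and 56 UMIs in the same order. The intervals of the homozygous (2.60 to 4.52 CPM) and heterozygous library (1.38 to 3.58 CPM) there overlapped that of wild type (3.31 to 5.69 CPM). In mature neutrophil-like cells the levels were 1.86, 3.97 and 8.39 CPM, from 2, 41 and 8 UMIs. Dividing cells were 161 of 300 homozygous, 1124 of 2422 heterozygous and 287 of 615 wild-type cells in the immature neutrophil-like class. Their part in the ratios of that class was not tested. In GMP-like cells Cdkn1c was alike in both states, as given above. Within immature neutrophil-like cells, where Cdkn1c was higher in dividing cells, the homozygous library lay above wild type among dividing cells (90.0 against 53.4 CPM) and below it among non-dividing cells (11.1 against 24.0 CPM). The non-dividing values rest on 12 homozygous and 61 wild-type UMIs. Their intervals, 5.73 to 19.4 and 18.4 to 30.9 CPM, overlapped.

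Cdkn1a was lower in both knockout libraries in several classes. In dendritic-like cells it had 156 CPM in the homozygous and 140 in the heterozygous library, against 274 in wild type (log2 -0.81 and -0.97). In mature neutrophil-like cells the levels were 35.3, 50.5 and 94.4 CPM (log2 -1.42 and -0.90). In monocyte-like cells they were 227, 189 and 278 CPM (log2 -0.29 and -0.56), under 1.5-fold. Over all cells the heterozygous library stood at log2 -0.85 of wild type and the homozygous library at -0.13; the heterozygous library held 1733 mature neutrophil-like cells and 2422 immature ones, classes in which Cdkn1a was low, and the part of this mix was not tested. In GMP-like cells the levels were 52.7 CPM in the homozygous, 55.5 in the heterozygous and 78.5 in the wild-type library. In immature neutrophil-like cells the homozygous library stood at log2 0.23 of wild type, with an interval that spans no difference (-0.0078 to 0.47).

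Cdk6 hardly differed in progenitor-like cells (log2 0.03 for homozygous and 0.09 for heterozygous over wild type) and GMP-like cells (log2 0.02 and -0.01). In mature neutrophil-like cells it was lower in both knockout libraries, at 670 and 711 CPM against 1087 in wild type (log2 -0.70 and -0.61). Counting only cells of this class with Xist and no Y-linked UMIs, Cdk6 had 638 CPM in 80 homozygous, 1088 CPM in 97 heterozygous and 1116 CPM in 108 wild-type cells. The 1085 heterozygous cells with Y-linked and no Xist UMIs had 651 CPM. Ccnd3 was higher in both knockout libraries in each of the 6 classes, by log2 0.14 to 0.75 in the homozygous and 0.06 to 0.95 in the heterozygous library. It passed 1.5-fold in dendritic-like cells of both, with 471 and 540 CPM against 280 in wild type, and in progenitor-like cells of the heterozygous library (344 against 210 CPM). Cdkn1b and Cdkn2d stayed under 1.5-fold in all classes and both comparisons. In the rare genes Ccnd1 and Ccnd2 the ratios rest on few UMIs, such as 51 homozygous and 26 wild-type UMIs of Ccnd1 in dendritic-like cells (log2 1.33, interval 0.62 to 2.07).

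**Figure D4:**
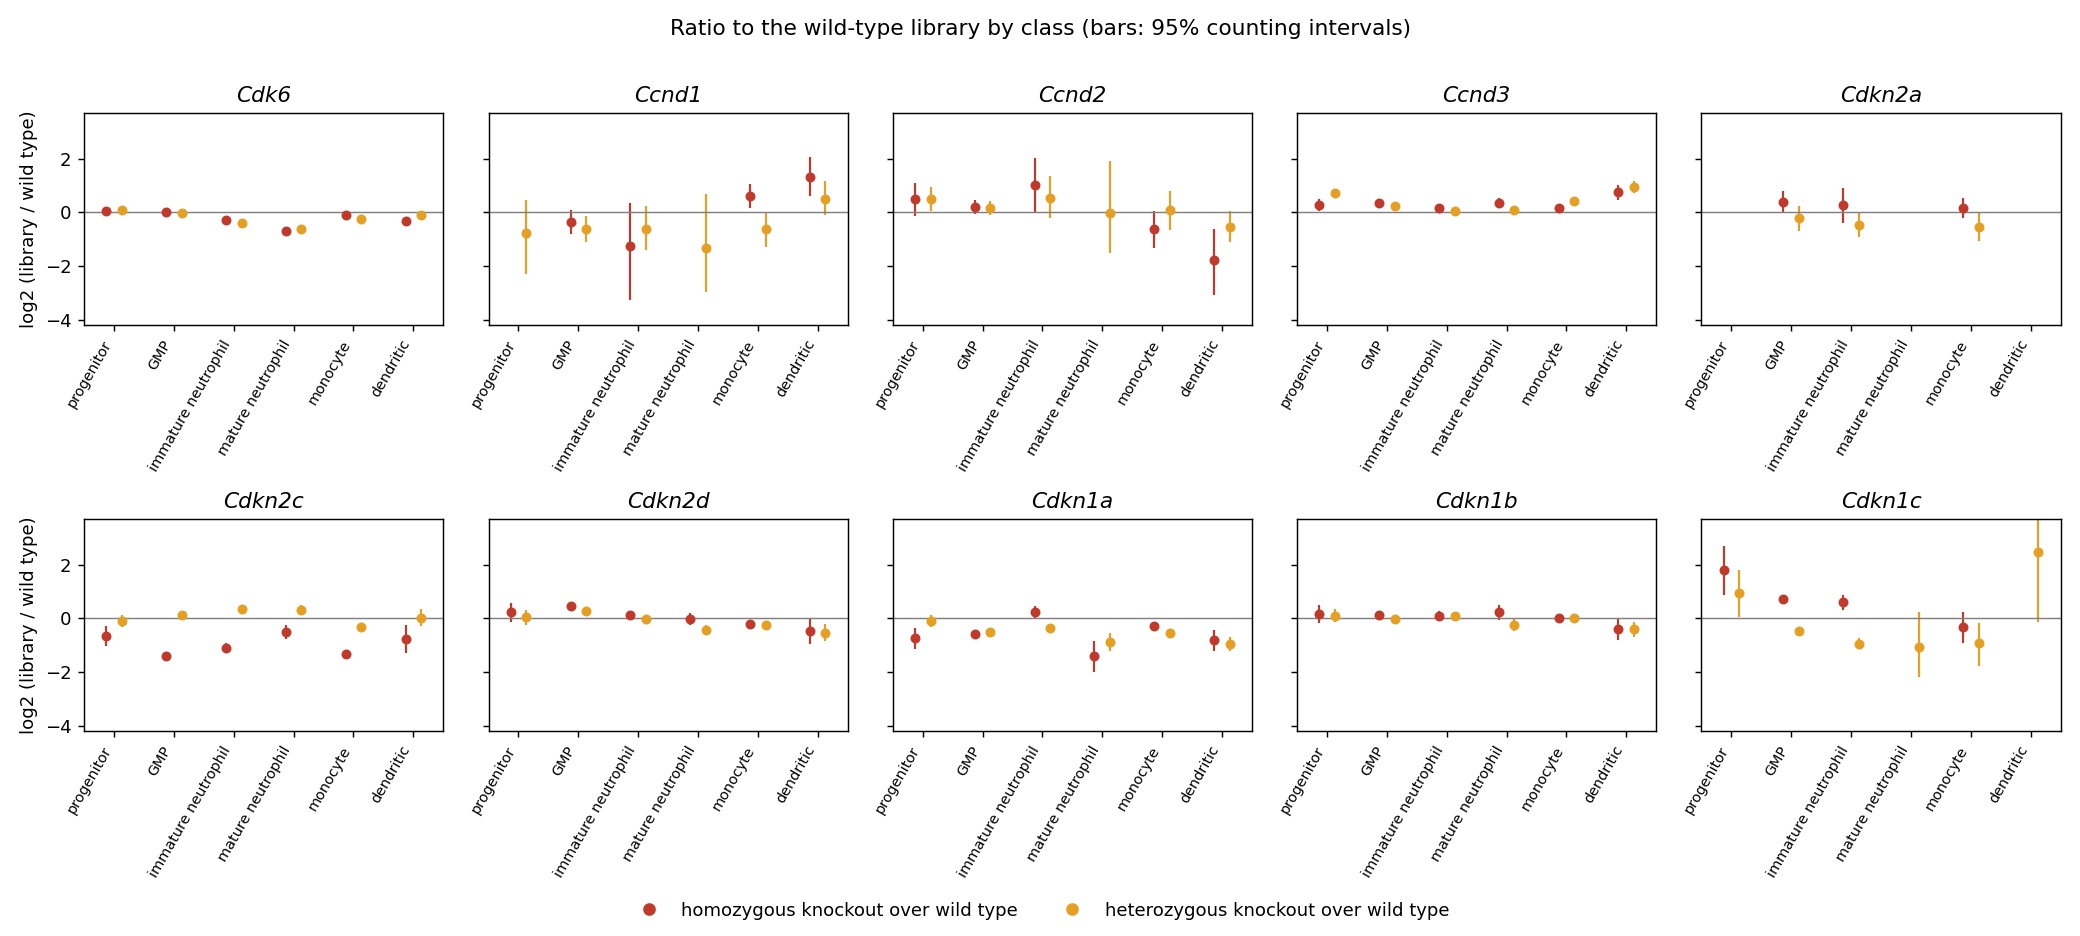
Log2 ratio of CPM to the wild-type library for the homozygous (left) and heterozygous (right) knockout library in each class, with 95% counting intervals. Ratios with under 20 UMIs over the pair of libraries or with 0 UMIs in one of them are not drawn, and the bar of Cdkn1c in heterozygous dendritic-like cells runs past the axis. Cdkn2c is below 0 in the homozygous library in all 6 classes, and Ccnd3 is above 0 in both libraries in all 6.

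Past 1.5-fold over all cells with at least 20 UMIs, the homozygous library had 1 of the 10 genes higher and 1 lower than wild type, where 11.5% of all 17034 genes were higher and 9.62% lower. The heterozygous library had none higher and 1 lower, against 11.6% and 17.6% of 17412 genes. In GMP-like cells the homozygous counts were 1 higher and 1 lower (8.27% and 9.56% of genes) and in monocyte-like cells 1 and 2 (11.8% and 9.25%). They were 1 and 3 of 9 genes in progenitor-like cells (12.9% and 14.0%) and 2 and 2 in immature neutrophil-like cells (7.52% and 10.5%). Mature neutrophil-like cells had 0 and 2 of 6 genes (7.82% and 17.9%) and dendritic-like cells 2 and 3 of 8 (15.1% and 12.8%). Where fewer than 10 genes are given, the others had under 20 UMIs over the pair of libraries. The heterozygous counts were 2 and 1 of 9 genes in progenitor-like cells (11.1% and 13.1%) and 0 and 1 in GMP-like cells (7.38% and 10.7%). They were 0 and 2 in immature neutrophil-like cells (7.9% and 10.1%) and 0 and 4 of 9 in mature neutrophil-like cells (15.0% and 16.3%). Monocyte-like cells had 0 and 2 (8.23% and 8.7%) and dendritic-like cells 2 and 1 of 9 (17.1% and 9.0%).

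The marker levels of other classes also differed between libraries within a class. Summed immature neutrophil markers in GMP-like cells came to 6784 CPM in the homozygous, 12892 in the heterozygous and 4682 in the wild-type library, and in monocyte-like cells to 468, 2114 and 1009 CPM. The heterozygous library, which held the most neutrophil-like cells, was the highest in both. Their part in the genotype ratios was not tested. Within the heterozygous library, Y-only and Xist-only cells of a class differed by 1.5-fold or more in 9 of 52 pairs of gene and class. The share over all genes was not worked out, so this count shows nothing particular to these genes. Among the 9 was Cdk6 in immature neutrophil-like cells (781 CPM in Y-only and 1228 in Xist-only cells). Others were of scarce genes, such as Ccnd1 in the same class (2.31 and 1.02 CPM).

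Genes with the most similar pattern were sought over 36 sums of class, division state and library among 10179 genes, by Pearson's r of log2(CPM + 1). The sums share libraries, depth and cell composition, so r is a description. Cdk6 was most like Eml5 (r = 0.949) and Elf1 (0.926), Ccnd3 most like Arhgap30 (0.925) and Cdc42 (0.916), and Ccnd2 most like Sgk3 (0.850) and Mecom (0.838), one of the progenitor markers. Ccnd1 was most like Syngr2 (0.836) and the class II gene H2-Oa (0.825). Cdkn1b was most like Kdm7a and Ube2h (0.932 each), Cdkn2d like Ehd1 (0.910) and Gnai2 (0.894), and Cdkn1a like Smchd1 (0.885) and Sod1 (0.871). Cdkn1c was most like Prss57 (0.867) and Vcam1 (0.853), Cdkn2c like 9630013D21Rik (0.843) and Bltp1 (0.825), and Cdkn2a like H2bc7, a histone gene (0.740), and Anapc11, a subunit of the anaphase-promoting complex (0.732).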

How the data were processed

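Bone marrow cells were read by 10x 3' sequencing in 3 libraries, with 1 library of 2 pooled mice per genotype. The deposited UMI counts per gene and barcode were made by the authors with Cell Ranger 8.0.1, per the file headers, on mm10, per the submitters' processing notes. The annotation release and the counting of intronic reads are not given in the sources used here.

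Kept cells were scored on marker lists (mean z-score of ln(1 + UMIs per 10000), clipped at 3) and given the best class with at least 3 markers detected and a score of at least 0.5. UMIs were summed per library, class and division state. Summed counts were compared with edgeR 4.0.16 (R 4.3.3), quasi-likelihood test, TMM scaling, library as a block and Benjamini-Hochberg adjustment over all genes, at 0.05. The libraries are the repeats in these tests and differ in genotype. The block is the library, from which both states and all classes come. Genotypes were compared by CPM ratios with exact conditional 95% intervals, calling 1.5-fold with at least 20 UMIs. Levels have exact Poisson and shares exact binomial (Clopper-Pearson) intervals. Intervals and floors cover counting error only. For shares, cells were thinned to 1000 UMIs, leaving out 231 homozygous, 258 heterozygous and 75 wild-type cells.

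Scrublet's automatic threshold marked 0, 251 and 0 barcodes in the homozygous, heterozygous and wild-type libraries and was not used. Removing the 527, 919 and 712 top-scoring barcodes was an alternative. Other alternatives were DESeq2 1.42.0, its size factors, no filter on low counts, no block, each library left out, other cell filters, a stricter gate and at least 3 UMIs for dividing cells. The analysis used Python 3.11.15 with scanpy 1.11.5, and scripts were tested on simulated data. The 10 genes are named throughout; of each list the 3 called genes with the largest change are named. The genes and lists were chosen with earlier results of these data known.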

Additional observations from a re-analysis of the deposited data

Results flagged for a closer look

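For 3 genes, the log2 ratio of dividing to non-dividing cells lay above 0 in all 3 libraries of one class and below 0 in all 3 libraries of another, in 7 pairs of classes with at least 20 UMIs of the gene in each library. The difference between classes was not tested in any of them, and most of the single-class differences did not pass edgeR's test. The share of all genes that meet this rule was not worked out, so the count shows nothing particular to these genes. Cdkn2c stood at log2 0.19 in the homozygous, 0.18 in the heterozygous and 0.07 in the wild-type library in GMP-like cells (adjusted p = 0.209) and at 0.05, 0.04 and 0.04 in dendritic-like cells, which were not tested. It stood at -1.25, -0.48 and -0.52 in immature neutrophil-like cells, the called difference, and at -0.0092, -0.11 and -0.35 in mature neutrophil-like cells (adjusted p = 0.489). The mean difference was 0.90 between GMP-like and immature, 0.30 between GMP-like and mature, 0.79 between dendritic-like and immature and 0.20 between dendritic-like and mature neutrophil-like cells. Cdk6 stood at log2 0.24, 0.26 and 0.04 in immature neutrophil-like cells (adjusted p = 0.429), at -0.40, -0.09 and -0.14 in progenitor-like cells (adjusted p = 0.188) and at -0.15, -0.25 and -0.11 in GMP-like cells, where it was called lower. The mean difference was 0.39 between immature neutrophil-like and progenitor-like cells and 0.35 between immature neutrophil-like and GMP-like cells. Ccnd1 stood at log2 0.18, 0.68 and 0.0050 in monocyte-like cells (adjusted p = 0.713) and at -0.04, -2.08 and -0.33 in GMP-like cells (adjusted p = 0.0584), a mean difference of 1.11 that rests on 29 to 127 UMIs per library in monocyte-like cells.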

How the results depend on the processing

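Single-gene tests that passed under the main settings were repeated under others. Of these repeats, 588 kept their direction and side of the threshold, 60 kept only their direction and 0 reversed. Tests that had not passed were not followed gene by gene. Of the repeated genotype ratios, 584 stayed inside the counting interval of the main ratio and 60 moved out of it. Leaving the replicate block for the library out of the fit lowered the calls among the 10 genes to 2 over all cells (7 with it), to 0 in GMP-like cells (7 with it) and to 0 in monocyte-like cells (3 with it). In GMP-like cells the count was 4 with the stricter gate and 4 with DESeq2, and 3 to 7 with 1 library left out. In progenitor-like cells, where 0 passed, the count was 1 with a mitochondrial share under 25%, 2 with at least 3 UMIs for dividing cells, 1 with DESeq2 size factors and 1 with no filter. Past 1.5-fold over all cells, homozygous against wild type gave 1 gene in place of 2 with a mitochondrial share under 25%, with doublets removed and with TMM scaling. Heterozygous against wild type gave 3 with TMM scaling and 2 with cells weighted equally, in place of 1. The cause of these shifts was not tested. No paired analysis was possible because each genotype has 1 library, so genotype ratios carry counting error only. Depth limits Ccnd1, Ccnd2, Cdkn2a and Cdkn1c, which had under 60 UMIs in several classes.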
